A study of Mus musculus with 22 samples.

Results

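The fibrous and elastic extracellular matrix genes are 46 of the 26202 gene symbols counted in this mouse trachea RNA sequencing series. They were chosen by name and role and comprise 8 genes of the elastic fiber core and its microfibrils, 5 fibulins, 4 latent TGF-beta binding proteins, 3 lysyl oxidases, 6 fibrillar collagens, 3 collagen VI chains, 3 fibril-associated collagens, 5 small leucine-rich proteoglycans, 6 adhesive and matricellular proteins, and a proteinase with 2 inhibitors. All 46 were found in the count table.

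The tracheas came from mouse embryos in 6 groups. At E11.5, counted in embryonic days, whole tracheas were pooled by 5 per sample from controls carrying the floxed Wnt5a allele alone (Wnt5a f/f, 5 libraries) and from Dermo1Cre; Wnt5a f/f mutants (4 libraries). Dermo1Cre is a recombinase active in the mesenchyme, so the Wnt5a allele of the epithelium is not its target. At E13.5, cells carrying the smooth muscle reporter gamma SMA eGFP were sorted, from 5 pooled tracheas of a litter per sample, into epithelium (stained for EpCAM), muscle (positive for eGFP) and chondroblasts (negative for both, a gate that also takes any other unstained cell). Control epithelium, control muscle and control chondroblasts have 2 libraries each, 1 from the earlier (library A) and 1 from the later (library B) of the 2 dates in the column names. The labels give these controls as Bmp4 f/f; gamma SMA eGFP or Notum 300/300; gamma SMA eGFP, and the column names do not tell which is which. Only 1 sample of each control population is labelled Notum 300/300, so at least 1 of its 2 libraries is not. The 3 chondroblast libraries labelled Notum mutant came from Notum 150/150; gamma SMA eGFP embryos, a loss-of-function allele, and all carry the later date. Their column names hold N-97, N-98 and N-98-2, and whether the shared number means a shared litter or source was not given. The labels list separate samples and name no animals, so p-values measure the spread between libraries, which may be technical.

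Tissue strength in the airway wall rests on a pair of fiber systems. Elastic fibers form when elastin is laid onto a scaffold of fibrillin microfibrils, with fibulins guiding the deposition and lysyl oxidases cross-linking the product, and they let the wall stretch and recoil. Collagen fibrils, built from types I, III and V, resist tension. Proteoglycans and fibril-associated collagens bind their surface and set their diameter, and collagen VI links them to cells. Latent TGF-beta binding proteins anchor the growth factor TGF-beta on microfibrils until it is released.

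Total counts ran from 6880665 to 21678194 per library, and a gene level is given as CPM, its counts relative to the total of the library after scaling between libraries. By their own markers the sorted populations carried their labelled identity, with RNA of other cells in some libraries. The 9 smooth muscle markers summed to 14649 and 11448 CPM in muscle and 122 to 153 CPM in control chondroblasts, and the 7 epithelial markers to 2688 to 3109.7 CPM in epithelium and at most 45.2 CPM in the other sorted groups. The 8 cartilage markers summed to 2415 to 2662 CPM in control chondroblasts, 844 and 1805 CPM in muscle A and B, and 368 and 448 CPM in epithelium. Cartilage marker RNA was thus lower in the muscle gate but not absent from it. Muscle A also held 2434 CPM of 5 skeletal muscle markers, against 627 CPM in muscle B and at most 36.1 CPM in any chondroblast library, and control chondroblasts A held 65636 CPM of 5 red cell markers against 5349 CPM in control chondroblasts B. Epithelium A held 174 CPM of 5 macrophage markers, against 0.262 CPM in epithelium B and 101 to 147 CPM in control chondroblasts. Transcripts of the targeted genes did not separate mutants from controls. Wnt5a stood at 57.7 to 162.0 CPM in E11.5 controls and at 46.5 to 127.3 CPM in the libraries labelled Wnt5a mutant. Notum stood at 13.8 and 86.1 CPM in control chondroblasts and at 34.0, 35.6 and 13.9 CPM in those labelled Notum mutant. The part of each transcript that the alleles remove was not given in the sources used here, so mutant libraries are named by their labels.

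The matrix genes together took 2.65 to 2.97% of all counts in muscle, 2.66 to 2.76% in control chondroblasts, 2.18 to 2.60% in chondroblasts labelled Notum mutant and 0.430 to 0.555% in epithelium. Whole tracheas at E11.5 lay near the epithelium, at 0.63 to 0.92% in controls and 0.52 to 0.98% in libraries labelled Wnt5a mutant. In bulk RNA, fewer cells of a type and less RNA per cell cannot be told apart. The summed level of all 46 genes was 30962 and 27577 CPM in muscle, 30574 and 26864 CPM in control chondroblasts and 4223 and 5664 CPM in epithelium. Fibrillar collagens made up the most of it, with 14519 and 12744 CPM in control chondroblasts and 11822 and 12248 CPM in muscle. Epithelium held 985 and 1732 CPM of them.

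**Figure D1:**
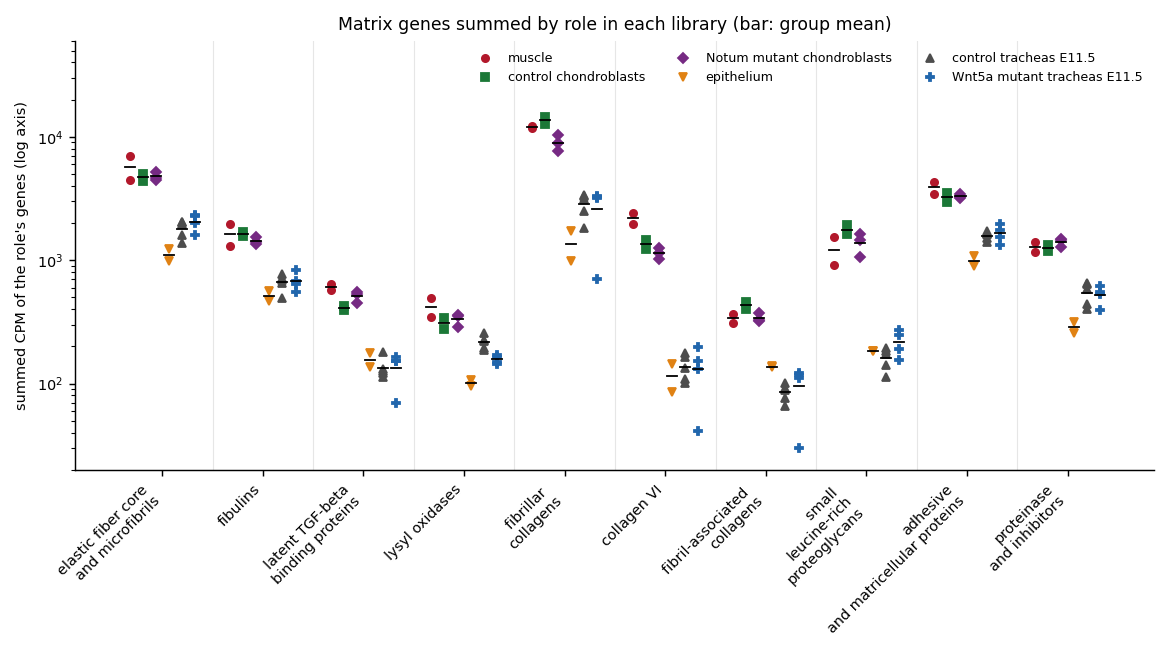
Summed CPM (log axis) of the members of each role in every library, 1 point per library and a bar at the group mean, by group. Muscle and chondroblast libraries lie above epithelium in the sums of fibrillar collagens and of collagen VI, and the E11.5 tracheas lie below both mesenchymal populations there.

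Compared per kilobase of exon, the microfibril protein gene Mfap2 had the highest level of the 46 in all 6 groups, with 1134 CPM per kilobase in control chondroblasts, 1093 in muscle, 1118 in chondroblasts labelled Notum mutant, 396 in epithelium, 572 in E11.5 controls and 682 in libraries labelled Wnt5a mutant. Col3a1, the chain of type III collagen, came next in control chondroblasts at 676 CPM per kilobase, and Mfap4 next in muscle at 631 CPM per kilobase. By group means, epithelium was the lowest sorted population for 41 of the 46 genes. The other 5 were Mfap5, Emilin2, Ltbp2, Col12a1 and Timp3. Muscle was highest for 22 genes, control chondroblasts for 13, chondroblasts labelled Notum mutant for 10 and epithelium for Col12a1 alone, by margins that for many genes lie within the spread between libraries.

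To ask which cells of the E13.5 trachea carry this program, the 3 sorted control populations were fitted together and compared by the quasi-likelihood test of edgeR, with p-values adjusted by Benjamini-Hochberg over all 13687 genes tested. Of the 46 genes, 44 passed the filter, which asks for 1 CPM in over 50% of a group's libraries. Ltbp2 and Col5a3 did not. Control chondroblasts were above epithelium for 24 of the 44 at an adjusted p under 0.05 and below for 0, where 1.72% of all genes tested were called higher and 1.02% lower. Muscle was above epithelium for 30 of the 44 and below for 0, where 2.41% of all genes were called higher and 1.17% lower. None of the 44 was lower in either comparison at an unadjusted p under 0.05 or by DESeq2, which called 33 and 34 higher. The median log2 fold change was 2.36 in the first comparison, beside 0.02 over all genes, and 2.15 in the second, beside 0.03. At the study's own thresholds (a fold change over 1.5 with an unadjusted p under 0.05), 36 of the 44 were higher and 0 lower in each comparison. Over all genes, 9.09% were higher and 6.66% lower in chondroblasts, and 10.1% higher and 7.53% lower in muscle. Both comparisons use the same epithelium. By role, the adjusted calls in chondroblasts and in muscle were 3 and 5 of 8 elastic core and microfibril genes, 3 and 2 of 5 fibulins, 1 and 1 of 3 latent TGF-beta binding proteins, 0 and 3 of 3 lysyl oxidases, and 5 and 5 of 5 fibrillar collagens. They were 3 and 3 of 3 collagen VI chains, 1 and 1 of 3 fibril-associated collagens, 4 and 4 of 5 proteoglycans, 3 and 4 of 6 adhesive and matricellular genes, and 1 and 2 of the 3 genes of the proteinase and its inhibitors. The adjusted counts moved with the libraries kept. Control chondroblasts were above epithelium for 8 genes without control chondroblasts A and 9 without control chondroblasts B, and muscle for 17 genes without muscle A or without either chondroblast library and 18 without muscle B. Without epithelium A and B, chondroblasts were above epithelium for 26 and 21 genes.

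Between muscle and control chondroblasts few of the genes were called. By edgeR, 0 of the 44 genes passed an adjusted p under 0.05, where 0.132% of all genes did, all of them higher. At an unadjusted p under 0.05 there were 7, and DESeq2 called 2 after adjustment, Col6a2 and Timp3. The median log2 fold change was 0.07 beside 0.00 over all genes. At the study's thresholds 6 of the 44 were called (4 higher in muscle, 2 lower), against 3.03% higher and 2.44% lower over all genes. That count was 3 without muscle A, 12 without muscle B, 2 without control chondroblasts A, and 10 and 11 without epithelium A and B, which share the estimate of spread. In muscle, 14 genes lay above and 12 below both chondroblast libraries without overlap, where 18.7% and 21.6% of all genes did.

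**Figure D2:**
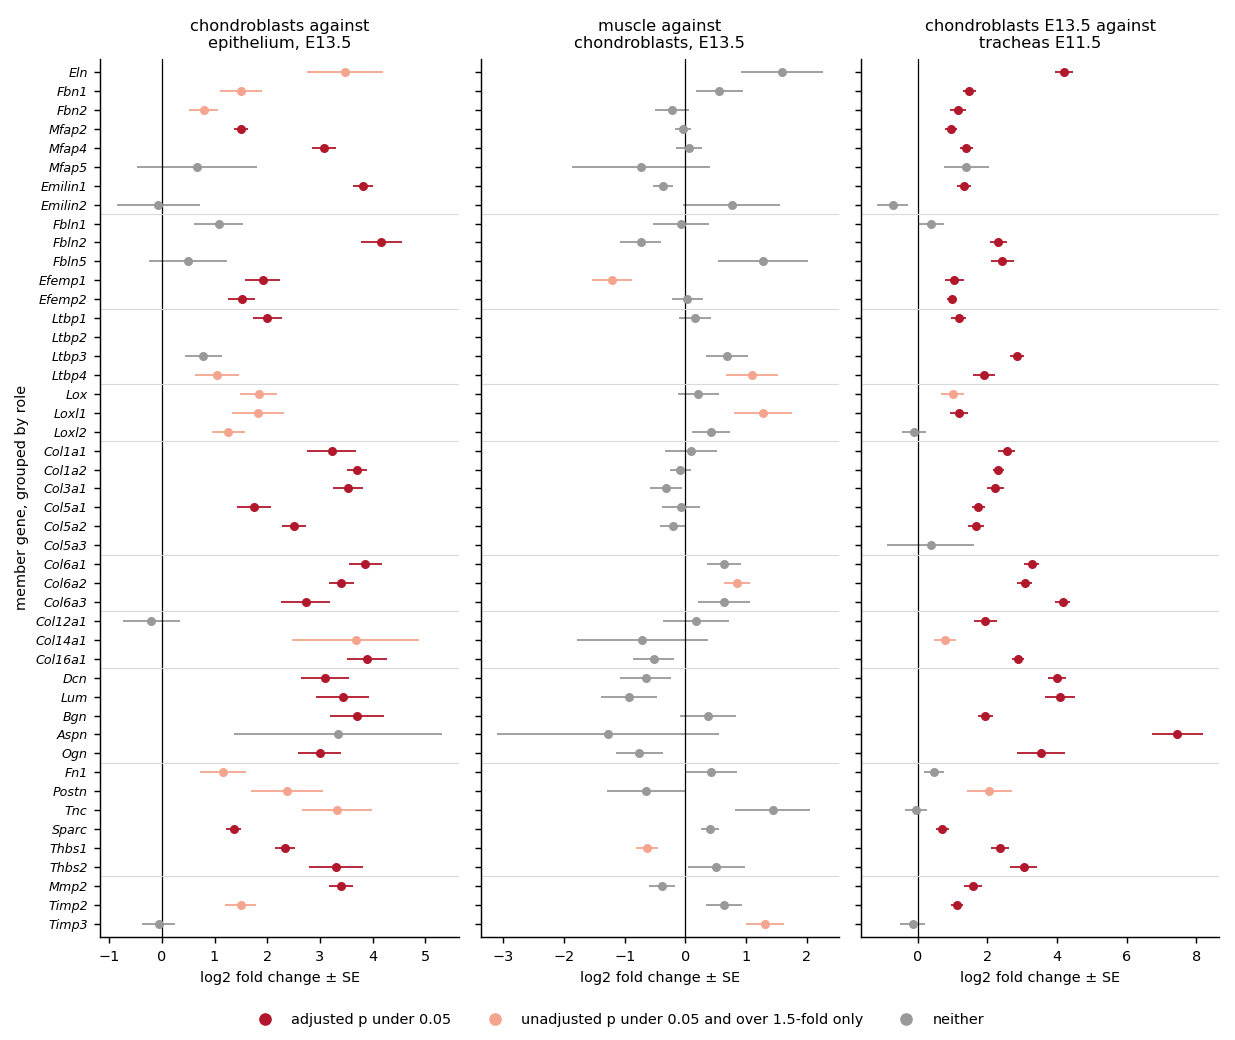
Log2 fold change with its standard error for the 46 genes, ordered by role, in control chondroblasts against epithelium (left), muscle against control chondroblasts (middle) and E13.5 control chondroblasts against the E11.5 controls (right). Dark red marks an adjusted p under 0.05, light orange the study's thresholds alone and grey neither. The left and right panels lie mostly above 0, and the middle panel scatters about 0.

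Elastin (Eln), the elastic core protein, stood at 2944 and 582 CPM in muscle, 634 and 555 CPM in control chondroblasts and 42.0 and 63.0 CPM in epithelium. Both mesenchymal populations lay above epithelium, but muscle A stood far above muscle B, which lay between the chondroblast libraries. Against epithelium the log2 fold change was 5.07 ± 0.78 (SE) for muscle, with an adjusted p = 0.0240 by edgeR, and 3.48 ± 0.73 for control chondroblasts, with an adjusted p = 0.0708. Muscle against chondroblasts gave 1.59 ± 0.67, with an unadjusted p = 0.0532 by edgeR, and the value was 2.33 without muscle B and -0.02 without muscle A. Muscle A is also the library with the most skeletal muscle marker RNA (the skeletal myoblast factor Myod1 at 110 CPM, against 1.64 CPM in muscle B), and the part of that in its elastin level was not tested.

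Emilin1, a glycoprotein at the interface of elastin and microfibrils, was at 591 and 639.6 CPM in muscle, 848 and 757 CPM in control chondroblasts and 50.9 and 60.7 CPM in epithelium. Both chondroblast libraries lay above both muscle libraries, and all 4 lay far above epithelium. Chondroblasts exceeded epithelium by 3.82 ± 0.19 on the log2 scale, with an adjusted p = 0.00370 by edgeR. Mfap4, a microfibril-associated protein, stood at 1315 and 1112 CPM in muscle, 1246 and 1122 CPM in control chondroblasts and 113 and 164 CPM in epithelium. It was higher in both mesenchymal populations than in epithelium, by 3.13 ± 0.23 in muscle and 3.08 ± 0.23 in chondroblasts. Fibrillin-1 (Fbn1), a microfibril protein, was at 409 and 260.5 CPM in muscle, 249 and 213 CPM in control chondroblasts and 51.6 and 109 CPM in epithelium. Every mesenchymal library lay above both of epithelium. Mfap2 lay at 1318 to 1328 CPM in muscle, 1331 to 1416 CPM in control chondroblasts and 469.8 to 488 CPM in epithelium. Emilin2, at 14.8 to 22.6 CPM in muscle, 11 to 11.3 CPM in control chondroblasts and 6.28 to 16.8 CPM in epithelium, and Mfap5, at 7.47 to 8.58 CPM in muscle, 2.91 to 24.2 CPM in control chondroblasts and 6.32 to 10.5 CPM in epithelium, did not pass a threshold between the sorted populations. Fibrillin-2 (Fbn2), the other fibrillin, ranged over 365 to 474 CPM in muscle, 426 to 566 CPM in control chondroblasts and 219 to 343 CPM in epithelium.

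Among the fibulins, Fbln2 separated mesenchyme from epithelium most, with 383 and 336 CPM in muscle, 785 and 433 CPM in control chondroblasts and 40.4 and 26.0 CPM in epithelium. Its log2 fold change of 4.17 ± 0.38 in chondroblasts against epithelium was the largest of the 44, with an adjusted p = 0.00808 by edgeR. Fbln5, which tethers elastin to cells during fiber assembly, followed elastin in its unequal muscle libraries. It stood at 957 and 155 CPM in muscle, 280.5 and 186 CPM in control chondroblasts and 176 and 149 CPM in epithelium, so that muscle A lay far above the rest and muscle B inside the range of epithelium. The log2 difference of muscle from chondroblasts was 1.28 with both muscle libraries, 2.06 without muscle B and -0.57 without muscle A. Efemp1, a fibulin tied to elastic fibers, ran the other way. It was at 45.6 and 44.0 CPM in muscle and 125 and 84.1 CPM in control chondroblasts, with epithelium at 30.2 and 24.4 CPM, and the groups did not overlap. Its log2 difference of -1.20 ± 0.33 between muscle and chondroblasts passed the study's thresholds (unadjusted p = 0.00954 by edgeR). Efemp2, a fibulin needed for elastin cross-linking, was at 233 and 259 CPM in muscle, 253 and 235 CPM in control chondroblasts and 64.3 and 104 CPM in epithelium, and Fbln1 ranged over 335 to 500.2 CPM in muscle, 259 to 627 CPM in control chondroblasts and 158 to 256 CPM in epithelium.

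Ltbp4, which anchors latent TGF-beta and guides elastin assembly, stood at 241 and 138 CPM in muscle, 59.5 and 120.0 CPM in control chondroblasts and 40.2 and 45.7 CPM in epithelium. Both muscle libraries lay above both chondroblast libraries, with a log2 difference of 1.10 ± 0.42 and an unadjusted p = 0.0380 by edgeR. Loxl1, a lysyl oxidase that acts on elastin, showed the same order. It was at 94.8 and 71.4 CPM in muscle, 23.4 and 45.7 CPM in control chondroblasts and 7.62 and 11.6 CPM in epithelium. Its log2 difference of muscle from chondroblasts was 1.28 ± 0.48 (unadjusted p = 0.0343 by edgeR). Lox (131 to 211 CPM in muscle, 116 to 183 CPM in control chondroblasts) and Loxl2 (141 to 183 and 109 to 137 CPM) differed less between the mesenchymal populations, by 0.21 and 0.42 on the log2 scale. All 3 lysyl oxidases were above epithelium in muscle at an adjusted p under 0.05, and 0 of 3 were in chondroblasts, where all 3 passed the study's thresholds. Whether these counts differ was not tested. Ltbp1 was at 208 and 275 CPM in muscle, 268 and 172 CPM in control chondroblasts and 54.7 and 53.1 CPM in epithelium, and Ltbp3 at 169 and 155 CPM in muscle, 99.2 and 104 CPM in control chondroblasts and 38.0 and 78.6 CPM in epithelium. For both genes every mesenchymal library lay above epithelium. Ltbp2, which did not pass the filter here, was at most 22.9 CPM.

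The type I and type III collagen genes were among the most abundant transcripts of both mesenchymal populations and passed no threshold between them. Col1a1 stood at 2189 and 2735 CPM in muscle, 1996 and 2679.6 CPM in control chondroblasts and 136 and 358 CPM in epithelium, and Col1a2, the partner chain, at 3203 and 3301 CPM in muscle, 3777 and 3198 CPM in control chondroblasts and 226 and 302 CPM in epithelium. Col3a1 was at 5268 and 5265 CPM in muscle, 7458 and 5819.5 CPM in control chondroblasts and 408 and 722 CPM in epithelium. The ranges of muscle and chondroblasts overlapped for both type I chains, and for Col3a1 both chondroblast libraries lay above muscle by a log2 difference that fell short of the thresholds (-0.31 ± 0.26, muscle minus chondroblasts). All 5 fibrillar collagen genes tested were above epithelium at an adjusted p under 0.05 in both populations, by 1.75 to 3.70 on the log2 scale in chondroblasts and 1.67 to 3.62 in muscle. Of the type V chains, which start fibrils, Col5a1 ranged over 519.7 to 740.2 CPM in muscle, 626 to 719 CPM in control chondroblasts and 141 to 254 CPM in epithelium, Col5a2 over 414 to 427 CPM in muscle, 422 to 562 CPM in control chondroblasts and 73.2 to 96.7 CPM in epithelium, and Col5a3 was at most 7.59 CPM.

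Collagen VI, which forms beaded filaments around cells, lay above chondroblasts in muscle for all 3 chains, without overlap between the libraries. Col6a1 was at 1179 and 1007 CPM in muscle, 789.9 and 637 CPM in control chondroblasts and 35.0 and 61.5 CPM in epithelium. Col6a2 was at 981 and 739 CPM in muscle, 508 and 456 CPM in control chondroblasts and 39.1 and 50.3 CPM in epithelium, and Col6a3 at 238 and 219.6 CPM in muscle, 152 and 147 CPM in control chondroblasts and 11.9 and 32.6 CPM in epithelium. The log2 differences of muscle from chondroblasts were 0.63 ± 0.28, 0.86 ± 0.21 and 0.63 ± 0.43, and Col6a2 alone passed the study's thresholds, with an unadjusted p = 0.00627 by edgeR. Against epithelium all 3 chains were higher in both populations at an adjusted p under 0.05, by 4.50, 4.26 and 3.36 in muscle. Col6a2 and Col6a1 are neighbours on chromosome 10 of the GRCm38.p6 assembly (chr10:76595756-76623630 and chr10:76708792-76726044), 85.2 kilobases apart.

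Fibril-associated collagens split. Col16a1 was at 136 and 269 CPM in muscle, 277 and 313 CPM in control chondroblasts and 21.7 and 17.1 CPM in epithelium, higher in chondroblasts than epithelium by 3.90 ± 0.38 with an adjusted p = 0.00943 by edgeR. Col14a1, at 22.2 and 19.5 CPM in muscle, 30.1 and 38.9 CPM in control chondroblasts and 4.89 and 0.327 CPM in epithelium, passed the thresholds in both populations but not the adjustment. Col12a1 did not follow the others. Its 153 and 73.8 CPM in muscle, 151 and 52.5 CPM in control chondroblasts and 108 and 121 CPM in epithelium overlapped throughout.

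Of the small leucine-rich proteoglycans, which bind collagen fibrils, biglycan (Bgn) was at 403 and 263 CPM in muscle, 279 and 243 CPM in control chondroblasts and 10.5 and 29.1 CPM in epithelium. It was higher in muscle than epithelium by 4.08 ± 0.52 and in chondroblasts by 3.70 ± 0.51, with adjusted p-values of 0.0144 and 0.0226 by edgeR. Decorin (Dcn) and lumican (Lum), 47.3 kilobases apart on chromosome 10 (chr10:97479500-97518163 and chr10:97565501-97572703, GRCm38.p6), were both low in muscle A. Decorin stood at 287 and 774 CPM in muscle and 895 and 795 CPM in control chondroblasts, and lumican at 119.9 and 358 CPM in muscle and 493 and 425 CPM in control chondroblasts. Muscle lay below chondroblasts without overlap for both genes, but muscle B lay close under them. Osteoglycin (Ogn) and asporin (Aspn) lie near each other on chromosome 13. Ogn was at 94.2 and 126 CPM in muscle, 229 and 148 CPM in control chondroblasts and 30.1 and 16.2 CPM in epithelium, and Aspn at 8.47 and 5.49 CPM in muscle, 26.4 and 8.00 CPM in control chondroblasts and 3.26 and 0 CPM in epithelium. Neither passed a threshold between muscle and chondroblasts.

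Tenascin-C (Tnc), a matricellular protein of remodelling tissue, was at 404 and 276 CPM in muscle, 121 and 133 CPM in control chondroblasts and 20.1 and 4.58 CPM in epithelium. Both muscle libraries lay more than 2-fold above both chondroblast libraries, a log2 difference of 1.44 ± 0.62 with an unadjusted p = 0.0553 by edgeR, and muscle exceeded epithelium by 4.77 ± 0.71. Thrombospondin-1 (Thbs1), an activator of latent TGF-beta, was lower in muscle, with 280.4 and 343 CPM against 511 and 464 CPM in control chondroblasts and 90.5 and 98.3 CPM in epithelium, and its log2 difference of -0.63 ± 0.18 passed the study's thresholds. Its relative thrombospondin-2 (Thbs2) lay the other way, at 541 and 338 CPM in muscle, 315 and 309 CPM in control chondroblasts and 16.4 and 45.9 CPM in epithelium. Sparc, a collagen-binding protein, was at 2068 and 1874 CPM in muscle, 1654 and 1374 CPM in control chondroblasts and 583 and 578 CPM in epithelium. Periostin (Postn), a cell-adhesion protein of collagen-rich tissue, was at 144 and 254 CPM in muscle, 386 and 245 CPM in control chondroblasts and 22.5 and 98.1 CPM in epithelium, and Fn1, the fibronectin gene, ranged over 363 to 877 CPM in muscle, 439 to 500.3 CPM in control chondroblasts and 156 to 259 CPM in epithelium. The ranges of muscle and chondroblasts overlapped for Postn and not for Sparc. Timp3, a metalloproteinase inhibitor held in the matrix, was at 422 and 376 CPM in muscle, 205 and 120.5 CPM in control chondroblasts and 135 and 199 CPM in epithelium. It was higher in muscle than chondroblasts by 1.32 ± 0.31 (unadjusted p = 0.00465 by edgeR), and its levels in chondroblasts and epithelium overlapped. The gelatinase Mmp2 was at 624 and 928 CPM in muscle, 1059 and 997 CPM in control chondroblasts and 98.1 and 92.8 CPM in epithelium, above epithelium at an adjusted p under 0.05 in both populations.

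**Figure D3:**
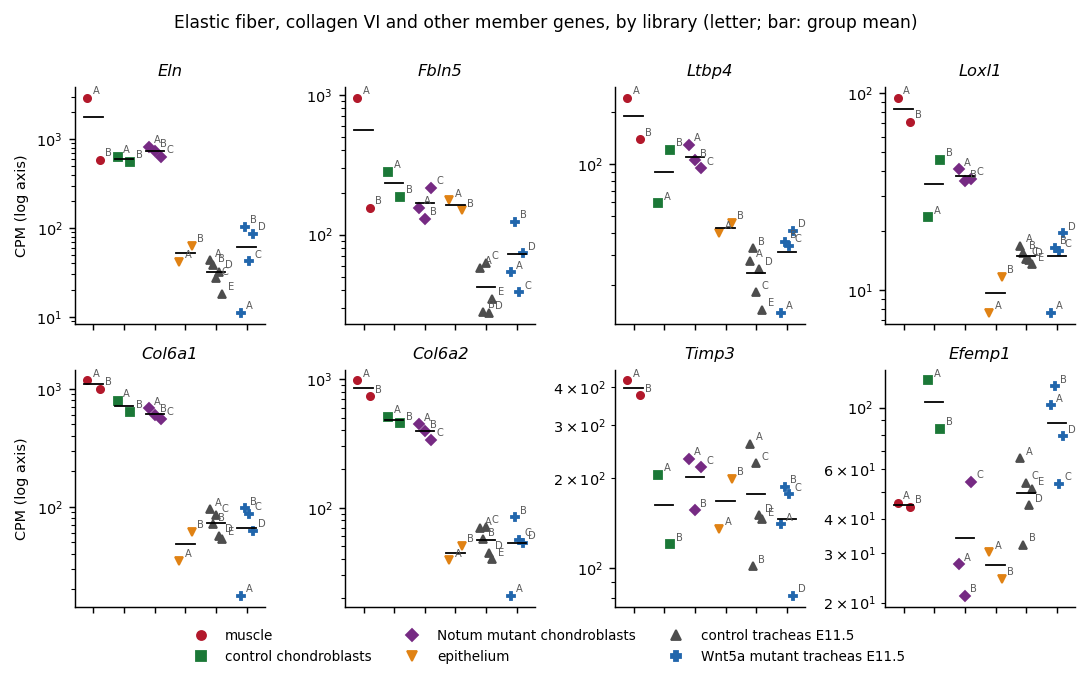
CPM (log axis) of Eln, Fbln5, Ltbp4, Loxl1, Col6a1, Col6a2, Timp3 and Efemp1 in each library of the 6 groups, 1 point per library and a bar at the group mean. The muscle libraries lie apart from each other for Eln and Fbln5 and together above both control chondroblast libraries for the others except Efemp1, where they lie below.

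Companion lists hold the enzymes, growth factors and receptors that work with these fibers. Of 19 genes for collagen processing, 3 were higher in control chondroblasts than epithelium at an adjusted p under 0.05, namely the hydroxylase Plod1 (2.81 ± 0.30 on the log2 scale), the procollagen C-proteinase Bmp1 (1.92 ± 0.27) and its enhancer Pcolce (3.62 ± 0.33). The count in muscle against epithelium was also 3. Of 6 TGF-beta ligands and receptors tested, Tgfb3 was higher in both, by 3.51 ± 0.34 and 3.53 ± 0.34. Of 10 matrix receptors, the collagen receptor Ddr2 was higher in chondroblasts (3.66 ± 0.40) and Ddr2 and Itga1, an integrin chain for collagen, in muscle (3.88 ± 0.41 and 6.67 ± 1.10). Between muscle and chondroblasts, at the study's thresholds, Itgb1 was higher in muscle (0.97 ± 0.28) and Itga11 lower (-6.41 ± 2.04).

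Control chondroblasts at E13.5 were next set against the whole control tracheas of E11.5, taken before cartilage forms. Stage and sorting cannot be told apart in this comparison, since the earlier tracheas still hold epithelium, smooth muscle precursors and vessels. Of 45 genes tested, 34 were higher in the chondroblasts at an adjusted p under 0.05 by edgeR and 0 lower, where 7.01% of all 14728 genes tested were called higher and 5.45% lower. None was lower at an unadjusted p under 0.05 or by DESeq2, which called 35 higher. The median log2 fold change was 1.68 beside -0.05 over all genes. Leaving out a library in turn gave 30 to 35 genes called in either direction. The smooth muscle, epithelial and endothelial marker sums were 419 to 801, 199 to 297 and 100.1 to 261 CPM in the E11.5 controls, against 122 to 153, 31.2 to 32.4 and 49.7 to 94.2 CPM in control chondroblasts. The loose connective tissue and tendon sum lay the other way, at 201 to 322 CPM in the E11.5 controls and 573 to 724 CPM in control chondroblasts, as did that of cartilage, at 282 to 829.8 and 2415 to 2662 CPM. The part of these markers in the differences was not tested.

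Elastin was at 43.3, 38.2, 27.2, 32.3 and 18.1 CPM in the 5 E11.5 controls and so below both chondroblast libraries in each, a log2 fold change of 4.20 ± 0.26. All 5 proteoglycans were higher. Aspn had 7 counts over all 5 E11.5 control libraries, 1 of them at 0, so its fitted log2 fold change of 7.46 ± 0.74 depends on the prior count. Dcn stood at 35.0 to 66.2 CPM in the E11.5 controls, Lum at 10.7 to 40.5 CPM and Ogn at 2.81 to 31.7 CPM, below both chondroblast libraries in every case, with log2 fold changes of 4.00 ± 0.26, 4.09 ± 0.43 and 3.54 ± 0.70. All 3 collagen VI chains were higher, by 3.28 ± 0.22 for Col6a1, 3.08 ± 0.21 for Col6a2 and 4.17 ± 0.22 for Col6a3, whose level at E11.5 was 6.28 to 10.7 CPM.

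Biglycan, the remaining proteoglycan, was higher by 1.94 ± 0.21. Of the fibrillar collagens, Col1a1 was at 464, 525, 394, 359 and 227 CPM in E11.5 controls, a log2 fold change of 2.55 ± 0.25, and Col3a1 at 1647, 1703, 1672, 1178 and 791 CPM, 2.23 ± 0.25. Of the 6 fibrillar chains, 5 passed the adjustment and Col5a3 did not. Ltbp3, at 9.57 to 16.8 CPM in E11.5 controls, was higher in chondroblasts by 2.85 ± 0.20. Not all members passed the adjustment. Tnc stood at 123, 176, 123, 163 and 64.2 CPM at E11.5, a range that held both chondroblast libraries, with a log2 difference of -0.05 ± 0.31. Timp3 differed by -0.15 ± 0.37, Loxl2 by -0.11 ± 0.35, Fbln1 by 0.39 ± 0.36 and Fn1 by 0.46 ± 0.29. Postn, Lox and Col14a1 passed the study's thresholds only. Of the companion lists, 6 of 19 collagen processing genes, 2 of 6 TGF-beta genes (Tgfb3, 3.22 ± 0.27, and Tgfbr3, 2.09 ± 0.26) and 1 of 10 matrix receptors (Itgav, 0.99 ± 0.24) were higher at an adjusted p under 0.05.

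Ranges give another view of the same levels. Of the 45 genes tested against E11.5, the epithelium libraries of E13.5 lay below all 5 controls for 19 and above all of them for 6, where 23.4% and 15.3% of all genes did so. The genes above were Fbln5, Ltbp3, Ltbp4, Col6a3, Col12a1 and Dcn. Muscle lay above all 5 controls for 38 genes and below for 0, where 17.4% and 20.9% of all genes did, and control chondroblasts above for 37 and below for 0, where 17.7% and 18% did. These are counts of ranges without a test.

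Notum encodes a secreted enzyme that inactivates Wnt ligands, and the loss-of-function comparison asked what its absence does to chondroblasts. All 46 genes were tested. By edgeR, 0 passed an adjusted p under 0.05, where 0% of all 14120 genes did. By the same test 16 had an unadjusted p under 0.05, as did 1762 of all genes. DESeq2 called 11 of the 46 after adjustment, and 526 of all 14120 genes. At the study's thresholds 10 were called, 3 higher and 7 lower in the libraries labelled Notum mutant, against 5.51% higher and 2.9% lower over all genes. The median log2 fold change was -0.07 beside 0.02 over all genes. All 3 mutant libraries lay below both controls for 15 genes and above both for 6, where 16.4% and 17.2% of all genes did so. By the labels the control libraries cannot both be Notum 300/300, and the part of their genotype in the differences was not tested. The control libraries were influential. Without control chondroblasts A, the median log2 fold change of the 46 genes was -0.01 beside 0.03 over all genes, and 23 lay above 0. Without control chondroblasts B it was -0.17 beside -0.01, and 18 lay above 0. Col12a1 stood at 0.71 without control A and -0.80 without control B. Col5a3, with 0 counts in control B, stood at 8.00 and -1.81. All mutant libraries carry the later date, as does control B. Set against control B alone, the 3 mutants lay below it for 18 genes and above it for 17, where 34.7% and 41.5% of all genes did. Against control A alone they lay below for 26 and above for 11, where 35.4% and 32.6% did. With date as a block over all sorted libraries, 9 genes passed the thresholds, and 4 of the 10 did not, namely Tnc, Aspn, Postn and Ltbp3.

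The 7 lower genes took in 3 of the 5 proteoglycans, Tnc, Efemp1, Postn and Col3a1. Tnc was at 121 and 133 CPM in control chondroblasts and 50.8, 44.0 and 57.9 CPM in those labelled Notum mutant, so every mutant library lay below 50% of either control. Its log2 fold change was -1.31 ± 0.16, with an unadjusted p = 0.000141 and an adjusted p = 0.117 by edgeR. Ogn was at 229 and 148 CPM against 68.5, 66.9 and 90.6 CPM, -1.31 ± 0.22 (unadjusted p = 0.000895 by edgeR). The groups did not overlap for either gene, and both also stood below the control of the later date alone, by 1.37 for Tnc and 0.96 for Ogn on the log2 scale. With date as a block Tnc no longer passed the thresholds in edgeR, at an unadjusted p = 0.0521, while Ogn passed at -1.11 ± 0.32.

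Aspn stood at 26.4 and 8.00 CPM in controls and 2.13, 2.36 and 5.08 CPM in mutants, a log2 fold change of -2.41 ± 0.64 with control A far above control B. Decorin was at 895 and 795 CPM against 522, 283 and 592 CPM, -0.85 ± 0.29. The other proteoglycans passed no threshold. Lum was at 493 and 425 CPM against 580.4, 401 and 665 CPM and Bgn at 279 and 243 CPM against 271, 306 and 268 CPM, with overlap in both. Efemp1 was at 125 and 84.1 CPM against 27.4, 21.1 and 54.1 CPM, -1.60 ± 0.41, with mutant C between the other mutants and the controls. Periostin, which promotes collagen cross-linking, was at 386 and 245 CPM against 168, 181 and 193 CPM, -0.79 ± 0.19. Unadjusted p-values by edgeR were 0.00886 for Aspn, 0.0253 for Dcn, 0.00711 for Efemp1 and 0.00508 for Postn. With date as a block Aspn stood at -1.03 ± 1.29 and Postn at -1.30 ± 0.56, neither past the thresholds, while Dcn and Efemp1 passed. The unadjusted p in that edgeR fit was 0.451 for Aspn and 0.0534 for Postn.

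Type III collagen was the fibrillar collagen past the thresholds. Col3a1 stood at 7458 and 5819.5 CPM in controls and 4637, 2933 and 3926 CPM in mutants, -0.78 ± 0.20 with an unadjusted p = 0.00646 by edgeR. Both type I chains lay the same way under a 1.5-fold difference, Col1a1 at 1996 and 2679.6 CPM against 1946, 1473 and 1564 CPM (-0.49 ± 0.17) and Col1a2 at 3777 and 3198 CPM against 2729.9, 2226 and 2364 CPM (-0.50 ± 0.11). The 3 mutant libraries lay below both controls for each of the 3 genes. Col5a2, 24.6 kilobases from Col3a1 on chromosome 1 (chr1:45374331-45503282 and chr1:45311538-45349706, GRCm38.p6), differed by -0.44 ± 0.14, also without overlap. The collagen VI sums, 1450.0 and 1239.9 CPM in controls and 1266, 1134 and 1024 CPM in mutants, overlapped, as did Col6a1. Col6a2 was lower in the mutants without overlap (340 to 446 against 456 to 508 CPM), and so was Col6a3 (126 to 142 against 147 to 152 CPM). The 3 chains differed by -0.28 to -0.14 on the log2 scale, and 0 passed the thresholds.

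The 3 higher genes were Thbs1, Ltbp3 and Timp2. Thbs1 was at 511 and 464 CPM in controls and 747, 869.6 and 724 CPM in mutants, 0.69 ± 0.12 with an unadjusted p = 0.000834 by edgeR. Ltbp3 was at 99.2 and 104 CPM against 178, 183 and 126 CPM, 0.68 ± 0.19, and the metalloproteinase inhibitor Timp2 at 71.9 and 59.2 CPM against 114, 107 and 85.7 CPM, 0.65 ± 0.17. All 3 mutant libraries lay above both controls for each. With date as a block Ltbp3 stood at 0.51 ± 0.31 (unadjusted p = 0.146 by edgeR), not past the thresholds, while Thbs1 and Timp2 passed. All 3 mutant libraries also lay above both controls for Fn1, at 500.3 and 439 CPM against 622, 609 and 645 CPM, under a 1.5-fold difference, and for Eln, at 634 and 555 CPM against 827, 737 and 637 CPM, a log2 difference of 0.31 ± 0.13 that did not pass a threshold. Thbs2 lay opposite to Thbs1, at 315 and 309 CPM against 267, 196 and 209 CPM. Of the companion lists, Bmp1 was higher (0.61 ± 0.18) and Pcolce lower (-0.75 ± 0.22) at the thresholds, as were Itga1 (1.10 ± 0.27) and Itga11 (-2.25 ± 0.67), and Tgfbr3 was lower (-1.01 ± 0.19). The smallest adjusted p among the 34 companion genes tested was 0.222 by edgeR.

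**Figure D4:**
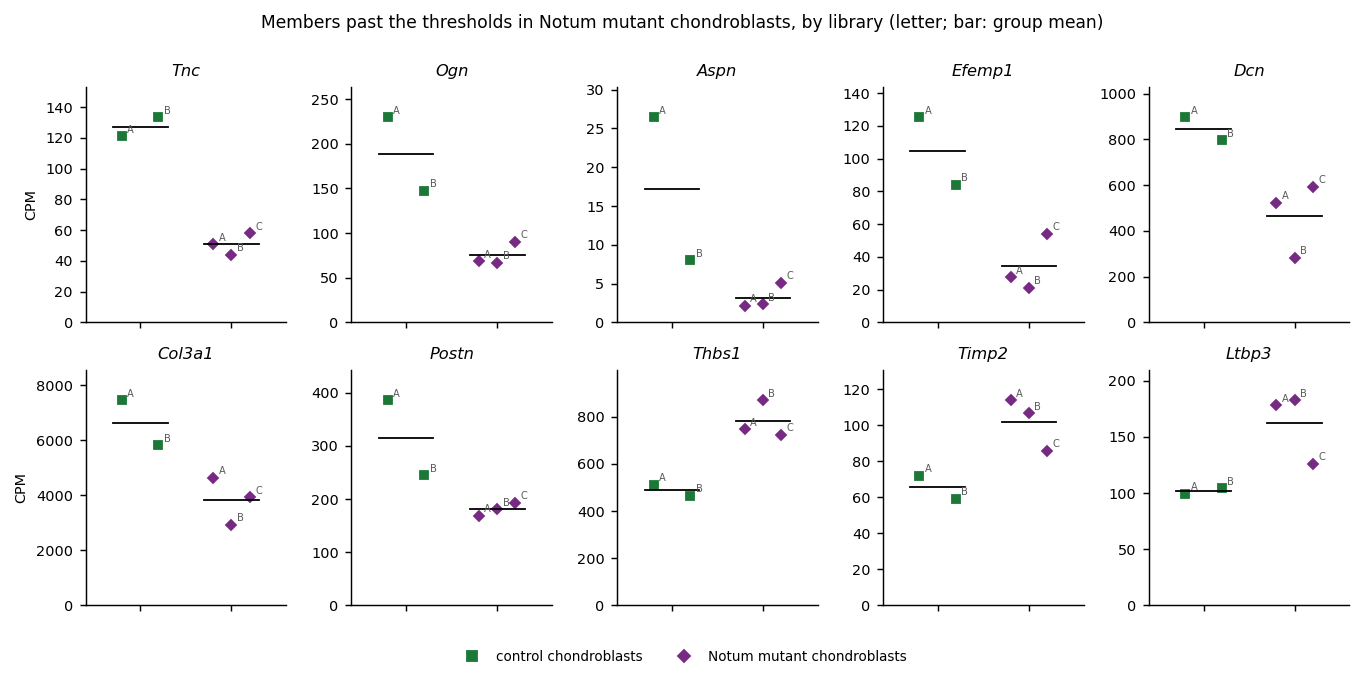
CPM (linear axis from 0) of the 10 genes past the study's thresholds in control chondroblasts and in chondroblasts labelled Notum mutant, 1 point per library and a bar at the group mean. For Tnc the controls sit at 121 and 133 CPM and the mutants at 44.0 to 57.9 CPM, and Thbs1, Timp2 and Ltbp3 lie the other way.

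Markers of other cells moved with this comparison. The 5 markers of loose connective tissue and tendon summed to 724 and 573 CPM in controls and 442, 414 and 448 CPM in mutants, lower in every mutant library, as were the epithelial markers (31.2 to 32.4 and 16.7 to 25.9 CPM). Most of that sum was the fibroblast receptor gene Pdgfra, at 549 and 398 CPM in controls and 254, 259 and 257 CPM in mutants. Of the 3 connective tissue and tendon markers tested, 2 were lower and 1 higher, from -0.87 to 0.07 on the log2 scale. Higher in every mutant library were the sums of markers for cartilage (2415 to 2662 CPM in controls and 3075 to 3837 CPM in mutants), macrophages (101 to 147 and 201 to 293 CPM), neurons and glia (143 to 211 and 214 to 281 CPM) and smooth muscle (122 to 153 and 156 to 190.1 CPM). Red cell marker sums were 65636 and 5349 CPM in controls A and B against 6160.3 to 8321 CPM in mutants. Their part in the differences above was not tested. Scaling by library size alone moved the median of all genes to 0.10 and that of the 46 to 0.02, with 24 rather than 19 of them above 0.

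RefSeq held promoters for 30 of the 46 genes. Of the genes whose libraries labelled Notum mutant all lay below both controls, 4 are shown, Aspn and Ogn on chromosome 13, with the gene Omd between them, and the fibrillar chains Col3a1 and Col1a2, of which Col1a2 differed by under 1.5-fold. Each window runs from 250 bases before to 50 bases after the annotated start in GRCm38.p6. It is printed 5′ to 3′ on the plus strand, on which all 4 genes lie. Capitals mark TATAAA, the letters of a TATA box, and CCAAT on either strand (TTTATA and ATTGG on the other). They mark a match at any position in the window, not only where a TATA box would lie. The windows are chr13:49544193-49544492 for Aspn, chr13:49607765-49608064 for Ogn, chr1:45311288-45311587 for Col3a1 and chr6:4505368-4505667 for Col1a2.
Aspn: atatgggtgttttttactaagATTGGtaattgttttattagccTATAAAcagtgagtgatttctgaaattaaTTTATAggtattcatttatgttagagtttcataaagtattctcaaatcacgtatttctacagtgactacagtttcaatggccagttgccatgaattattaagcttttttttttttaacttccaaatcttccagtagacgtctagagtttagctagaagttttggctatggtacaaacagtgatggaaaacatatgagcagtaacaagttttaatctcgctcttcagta
Ogn: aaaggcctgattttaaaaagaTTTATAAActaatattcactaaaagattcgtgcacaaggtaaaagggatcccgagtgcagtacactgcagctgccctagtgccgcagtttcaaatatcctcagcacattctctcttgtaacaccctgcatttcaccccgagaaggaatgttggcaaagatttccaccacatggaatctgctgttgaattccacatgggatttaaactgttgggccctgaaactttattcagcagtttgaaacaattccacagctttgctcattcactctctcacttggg
Col3a1: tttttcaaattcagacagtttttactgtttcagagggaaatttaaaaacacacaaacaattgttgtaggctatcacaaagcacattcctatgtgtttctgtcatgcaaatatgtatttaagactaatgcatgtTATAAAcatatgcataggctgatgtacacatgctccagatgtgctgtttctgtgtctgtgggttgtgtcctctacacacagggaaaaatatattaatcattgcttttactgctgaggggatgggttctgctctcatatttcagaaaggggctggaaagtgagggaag
Col1a2: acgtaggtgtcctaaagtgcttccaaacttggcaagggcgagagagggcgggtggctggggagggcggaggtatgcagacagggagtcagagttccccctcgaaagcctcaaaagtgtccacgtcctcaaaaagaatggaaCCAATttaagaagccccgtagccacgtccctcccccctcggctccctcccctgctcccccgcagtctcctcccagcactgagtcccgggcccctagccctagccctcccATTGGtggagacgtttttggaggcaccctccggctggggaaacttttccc
TATAAA occurred in 5 of the 30 promoters (16.7%, Aspn, Col3a1, Ogn, Thbs2 and Tnc), beside 14.2% of 27025 mouse promoters of the same length. CCAAT occurred in 11 of 30 (36.7%), beside 37.9%. CTTTGAT, the core bound by TCF/LEF factors of the Wnt pathway, occurred on either strand in 0 of 30, beside 3.72%. The Ogn matches, 1 on each strand, overlap. These counts describe letters in the windows and name no bound factor.

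Wnt5a is a Wnt ligand, and the E11.5 comparison asked how its loss in the mesenchyme changed the trachea before cartilage formed. Of 44 genes tested, 0 passed an adjusted p under 0.05 by edgeR, where 0.0136% of all 14663 genes did, 4 had an unadjusted p under 0.05, and DESeq2 called 0 after adjustment. The same 4 passed the study's thresholds, 2 higher and 2 lower in the libraries labelled Wnt5a mutant, against 1.19% higher and 2.53% lower over all genes. The median log2 fold change was -0.06 beside -0.02 over all genes. Without mutant A, 33 of 45 genes tested lay above 0, with a median of 0.17 beside -0.005 over all genes. The count at the thresholds was 9 without mutant A (7 higher and 2 lower), where 583 of all 14810 genes tested passed, 263 of them higher. It was 8 without control C (5 higher and 3 lower), where 726 of 14483 passed, 192 of them higher. It was 9 without mutant C (5 higher and 4 lower), where 591 of 14772 passed, 257 of them higher. With the column number as a block it was 6, adding Col14a1 and Lox, both lower, where 413 of 14663 genes passed.

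Mutant A stood apart. It was the lowest of the 9 libraries for 26 of the 44 genes, where it was lowest for 23.1% of all genes tested, and its fibrillar collagens summed to 703 CPM against 3203 to 3280.2 CPM in the other mutants and 1838 to 3388 CPM in the controls. Col1a1 was at 38.9, 530.4, 390.4 and 427 CPM in mutants A to D, Col3a1 at 269, 1406, 1657 and 1555 CPM and Emilin1 at 123, 372, 352 and 362 CPM. The other 3 mutants overlapped the controls for all of these. The epithelial marker sum was 518 CPM in mutant A and 219 to 306 CPM in mutants B to D, with controls at 199 to 297 CPM. Its sum for neurons and glia was 370.2 CPM, against 48.4 to 131 CPM in the other mutants and 58.0 to 223 CPM in controls, and for loose connective tissue and tendon 157 CPM, against 320.3 to 336 and 201 to 322 CPM. The part of these markers in the low levels was not tested.

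Emilin2 passed the thresholds and lay lower in every mutant library than in any control. It was at 12.0, 25.5, 13.7, 28.8 and 9.69 CPM in controls and 5.46, 1.98, 9.40 and 8.29 CPM in mutants, without overlap, where 0.436% of all genes lay wholly below and 0.825% wholly above. Its log2 fold change was -1.54 ± 0.46, with an unadjusted p = 0.00614 and an adjusted p = 1 by edgeR. Tnc was at 123, 176, 123, 163 and 64.2 CPM against 27.9, 71.2, 75.8 and 109 CPM, -0.90 ± 0.36 (unadjusted p = 0.0283 by edgeR), with control E among the mutants. Tnc was lower in the mutant of all 4 pairs of libraries that share a column number. So were Emilin2, Fbln1, Lox, Col3a1, Col14a1, Thbs2 and Timp3, while Mfap4, Ltbp3 and Timp2 were higher in all 4. The other 35 genes were mixed. Some of the shared signs rest on small differences, such as -0.01 for Col3a1 and -0.04 for Col14a1 at number 18, and 0.02 for Timp2 at number 7. The share of all genes with the same sign in all 4 pairs was not counted, so these signs cannot be set against it. Mutant A, paired here with control D by number 17, correlated best with control E.

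Efemp1 was higher at the thresholds, at 65.7, 32.3, 53.8, 44.6 and 51.1 CPM in controls and 102, 119, 53.3 and 78.8 CPM in mutants, 0.80 ± 0.25 (unadjusted p = 0.00876 by edgeR), with mutant C inside the control range. Col12a1 passed the thresholds in the same direction, at 22.8, 32.6, 27.8, 25.1 and 21.6 CPM against 19.9, 54.2, 43.9 and 80.7 CPM, where mutant A lay below every control and the other 3 mutants above all of them. Elastin was at 11, 103, 42.2 and 85.5 CPM in mutants against 18.1 to 43.3 CPM in controls, and its mutant libraries spread on both sides of them. Without mutant A, Eln and Ltbp3 also passed the thresholds, both higher. Skeletal muscle marker sums were 204 to 324 CPM in mutants and 39.9 to 166 CPM in controls, and their part in these values was not tested. Among companion genes, P4ha3, a collagen prolyl hydroxylase, was higher (0.77 ± 0.24) and the lysyl oxidase Loxl4 lower (-1.02 ± 0.43) at the thresholds. The smallest adjusted p among the 35 companion genes tested was 1 by edgeR.

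**Figure D5:**
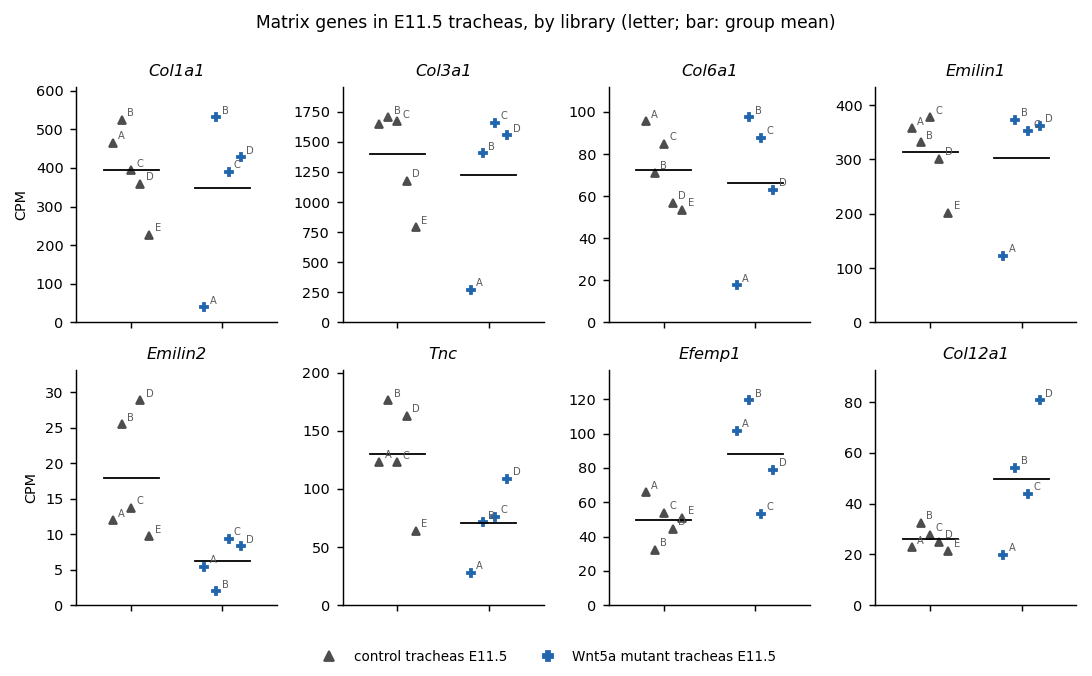
CPM (linear axis from 0) of Col1a1, Col3a1, Col6a1, Emilin1, Emilin2, Tnc, Efemp1 and Col12a1 in the E11.5 control tracheas and those labelled Wnt5a mutant, 1 point per library and a bar at the group mean. Emilin2 is the gene whose groups do not overlap, and a single low mutant library, A, stands apart for Col1a1, Col3a1 and Emilin1.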

How the data were processed

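The SMART-Seq v4 kit amplified the RNA, and Nextera XT made the libraries. The authors deposited expected counts (estimated counts that need not be whole, 56.0% fractional) in 47248 entries without normalization. The submitters' processing notes name Partek, limma and mm10, and the study's methods name DESeq2 and Cufflinks. The aligner, counter and annotation were not given in the sources used here, so reads shared by similar or overlapping genes could have been split, and strand is unknown. Of 22 columns, 18 matched a group by name, and the 4 without a matching label were left out. For the sorted groups the labels list more samples than the columns matched.

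Entries were summed per symbol (9286 symbols had several) and rounded. Genes reaching 1 CPM in over 50% of a group's libraries were tested with TMM scaling and edgeR's quasi-likelihood test (edgeR 4.0.16, R 4.3.3), 2-sided, with Benjamini-Hochberg adjustment over all genes tested. The F statistic gave the standard errors (log2 fold change over root F). The procedure was tested on simulated data. The 3 sorted control populations were fitted together, and the other comparisons on their own groups. Comparisons with a shared group are not independent. Alternatives were DESeq2 1.42.0, other scalings, no filter, wider fits, blocks and leaving out each library. A floor of 3 counts corresponds to 0.138 to 0.436 CPM, and it covers counting error only, as the kit adds no molecular identifiers. Libraries of a group differed beyond counting noise (the closest pair had a chi-square of 18.8 per gene). The biological coefficient of variation was 66.8% for the sorted controls, 35.9% for the Notum, 34.0% for the Wnt5a and 38.9% for the stage comparison. At E11.5, libraries that share a column number deviated together (r of 0.207, 0.619, 0.127 and 0.130), so the number was taken to pair them. Mutant A, however, correlated best with control E and not with control D, which shares its number. The main Wnt5a test left this pairing out. With the number as a block, 9 rather than 4 members had an unadjusted p under 0.05 by edgeR (652 and 672 of all genes).

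Members, companion lists and markers were chosen with earlier results of these data known. Values in every library are given for members with an adjusted p under 0.05, or past the thresholds without overlap, in at least 1 comparison, and for up to 3 per role where more than 30 qualified. Companion genes are named where called, up to 3 per direction. Emilin2 in the sorted groups, Eln, Fn1, Bgn, Lum and Thbs2 in mutants, and Tnc and Timp3 between stages were added after their values were seen. Gene spans, exon lengths and promoters come from RefSeq GRCm38.p6 and GENCODE vM21 and were matched by symbol.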

Additional observations from a re-analysis of the deposited data

Results flagged for a closer look

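In groups of 4 and 5 libraries, 1 library lay far from the others for 7 of the 92 gene and group pairs checked, by a rule that chance meets in about 1 of 20. Control B of E11.5 was high for Fbn1, at 112 CPM against 68.9 to 79.5 CPM in the other controls, and for Ltbp1, at 131 CPM against 83.6 to 90.9 CPM. The library of the Wnt5a-labelled group that stands apart in the collagens, mutant A, was low for Emilin1, at 123 CPM against 352 to 372 CPM. Ltbp2 was at 1.59 CPM in control E against 0.233 to 0.535 CPM. Aspn, near the floor at this stage, was at 0.233 CPM in control A against 0 to 0.0669 CPM, and at 0.627 CPM in mutant C against 0 to 0.0550 CPM. Timp2 was at 38.6 CPM in mutant B against 30.7 to 31.7 CPM.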

How the results depend on the processing

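No reported call turned its direction under any alternative run. Col12a1 and Col5a3, not called in the Notum comparison, had opposite signs without control chondroblasts A and without control chondroblasts B. The log2 values were 0.71 and -0.80 for Col12a1. The uncalled Eln and Fbln5 differences between muscle and chondroblasts changed sign without muscle A. Of counts at an adjusted p under 0.05, muscle against control chondroblasts went from 0 to 2 with DESeq2 and 6 without a filter, chondroblasts against epithelium from 24 to 37 without a filter, and the Notum comparison from 0 to 11 with DESeq2 and 2 without a filter. Of counts at the study's thresholds, muscle against chondroblasts went from 6 to 10 with DESeq2, 17 without a filter and 11 with all sorted libraries in 1 fit. The Notum count went from 10 to 6 with all sorted libraries and 3 with all 18 libraries, and the Wnt5a count from 4 to 8 with DESeq2 and to 8 without a filter. Leaving out each library in turn gave adjusted counts of 8 to 26 for chondroblasts against epithelium, 17 to 25 for muscle against epithelium, 30 to 35 for stage, 0 to 9 for Notum, and 0 to 0 for both muscle against chondroblasts and Wnt5a. It gave threshold counts of 2 to 12 for muscle against chondroblasts, 10 to 18 for Notum and 3 to 9 for Wnt5a. The highest Notum counts, adjusted and at the thresholds, came from fits that left 1 control library. In those fits calls rose over all genes as well, so the rise was not confined to the matrix genes. The causes of these changes in count were not tested. A replicate block by date, a number of the columns and not of the labels (r of 0.123, 0.0065 and 0.146 between populations), gave adjusted counts of 19, 25 and 0 for chondroblasts against epithelium, muscle against epithelium and muscle against chondroblasts, with 7 of the last at the thresholds. The Notum block, with all sorted libraries, gave 9 at the thresholds, without Tnc, Aspn, Postn and Ltbp3 and with Col1a1, Col5a3 and Ltbp2 added. The Wnt5a block by column number gave 6. Groups of 2 libraries and a floor of up to 0.436 CPM limit what these tests can show, for Aspn and Ltbp2 at E11.5 above all.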
